A study of Drosophila melanogaster with 3 samples.

Results

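Aminoacyl-tRNA synthetases are the enzymes that join each amino acid to its transfer RNA (tRNA), and they were examined here as sites of chromatin association of the Drosophila protein Chiffon. The members were the protein-coding genes of the Ensembl annotation whose symbol holds a 3-letter amino acid code directly followed by RS. The rule found 35 genes of 13945 protein-coding genes. A symbol ending in -m marked the enzyme as mitochondrial, and all others were counted as cytosolic, which gave 20 cytosolic and 15 mitochondrial enzymes. Of the genes counted as cytosolic, 5, ThrRS among them, had no mitochondrial counterpart by symbol. Whether these genes also supply the mitochondrial enzyme was not examined. The rule used gene symbols only and no measured value.

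Most synthetases recognise a single amino acid and the tRNAs that read its codons, and the charged tRNAs then carry amino acids to the ribosome. Cells make proteins in the cytosol and, separately, in mitochondria, and in animals most amino acids have a separate nuclear gene for the mitochondrial enzyme. Several cytosolic synthetases assemble in a multisynthetase complex held together by scaffold proteins, and all synthetases fall into class I or class II by the fold of their catalytic domain. The gene chiffon (chif) encodes a Dbf4-related protein, and Dbf4 activates the Cdc7 kinase at the start of DNA replication. A product of chif is also part of a histone acetyltransferase complex that contains Gcn5, and the regions described here do not tell these roles apart.

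The data were a chromatin immunoprecipitation followed by sequencing (ChIP-seq) of mixed-sex Drosophila melanogaster embryos, used whole at an age of 0 to 24 h. The embryos came from strain chif-RA-GFP, a transgenic line that makes Chiffon fused to green fluorescent protein, and the fusion was precipitated with an anti-GFP antibody. The promoter that drives the fusion was not given in the sources used here. All 3 samples were biological replicates of this 1 group, so the study holds no contrast between conditions, and whole embryos do not show in which cells a region was bound. The authors deposited region lists on the dm6 build: 1 list for each replicate with 30000 regions, 1 list of 25066 regions from the pooled replicates, and 3684 peaks kept after a comparison of replicates by the irreproducible discovery rate (IDR). Each region carries a summit and a signal value, which is the authors' own score, and its scale, the sequencing depth and the input or control signal were not given in the sources used here. A gene was counted as having a summit where one lay within 500 bp of any of its annotated transcript starts. Within a replicate, the highest regions are the 3684 with the highest signal value, as many as there are IDR peaks.

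Short stretches of genomic DNA around 6 of the 8 IDR summits at cytosolic synthetase genes are given first, as examples. Those of SerRS, the strongest, and AspRS are not shown. Each is 120 bases of the RefSeq Release 6 genome (dm6), read 5' to 3' on the strand of the synthetase gene. IleRS is chr3L:22288448-22288567 on the plus strand, with the summit at base 61. ThrRS is chr2L:12103562-12103681 on the plus strand, also with the summit at base 61. GluProRS is chr3R:23958531-23958650 on the minus strand with the summit at base 55. AsnRS is chr2L:19132007-19132126, beta-PheRS is chr3R:24252704-24252823 and ArgRS is chrX:15844274-15844393, all on the minus strand with the summit at base 60. Capitals mark matches to the core promoter and transcription factor motifs described further on, other than GAGAG, searched on both strands. The stretches for IleRS, GluProRS and ArgRS hold no match.
IleRS: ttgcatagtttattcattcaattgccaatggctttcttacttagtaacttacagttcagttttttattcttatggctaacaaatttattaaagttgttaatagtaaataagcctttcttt
GluProRS: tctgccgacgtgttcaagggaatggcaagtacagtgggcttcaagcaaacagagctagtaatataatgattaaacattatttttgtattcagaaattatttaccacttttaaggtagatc
ThrRS: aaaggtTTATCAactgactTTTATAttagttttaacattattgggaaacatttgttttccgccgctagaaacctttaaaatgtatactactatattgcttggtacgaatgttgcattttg
AsnRS: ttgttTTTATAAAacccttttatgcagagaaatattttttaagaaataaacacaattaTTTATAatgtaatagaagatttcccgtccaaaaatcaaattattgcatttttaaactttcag
beta-PheRS: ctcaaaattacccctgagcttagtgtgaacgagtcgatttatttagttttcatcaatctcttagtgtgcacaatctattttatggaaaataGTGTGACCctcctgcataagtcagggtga
ArgRS: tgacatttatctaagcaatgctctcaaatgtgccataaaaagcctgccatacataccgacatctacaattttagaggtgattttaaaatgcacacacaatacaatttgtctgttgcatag

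The AsnRS stretch is the most AT-rich of these 6, with 21.7% GC, and its capitals mark matches to TATAAA. The capitals in ThrRS mark TGATAA and TATAAA read on the other strand, and those in beta-PheRS mark GGTCACAC read on the other strand. Beside them stand the 120 bases directly upstream of 3 mitochondrial genes. IleRS-m, at chr3L:16100160-16100279, charges the same amino acid as IleRS and had no summit in the IDR or pooled list. SerRS-m, at chr3R:15340547-15340666, and TrpRS-m, at chr3L:17849607-17849726, had no region in any of the 5 lists. All 3 are on the plus strand of dm6. The IleRS-m stretch holds no match, and the capitals in SerRS-m and TrpRS-m mark TGATAA, on either strand, and in TrpRS-m also CAGCTG.
IleRS-m: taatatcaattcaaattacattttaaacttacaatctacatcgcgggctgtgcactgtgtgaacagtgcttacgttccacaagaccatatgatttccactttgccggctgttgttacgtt
SerRS-m: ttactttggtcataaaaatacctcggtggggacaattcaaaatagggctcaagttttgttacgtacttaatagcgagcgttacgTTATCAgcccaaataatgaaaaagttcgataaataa
TrpRS-m: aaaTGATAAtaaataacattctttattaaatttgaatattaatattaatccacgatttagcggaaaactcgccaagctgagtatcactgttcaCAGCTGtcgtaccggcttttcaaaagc

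IDR peaks lay at cytosolic synthetase genes more often than at mitochondrial ones. IDR summits were found at the starts of 8 of 20 cytosolic genes (40.0%): SerRS, IleRS, GluProRS, ThrRS, AsnRS, beta-PheRS, ArgRS and AspRS. They were found at 1 of 15 mitochondrial genes (6.67%), PheRS-m. Over all protein-coding genes the share was 15.0%, and over the 35 synthetase genes it was 25.7%, or 9 genes. The cytosolic share stood above the share of all genes and the mitochondrial share below it, and the IDR list is a single list with no replicate spread of its own.

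The same order held in each replicate. Among the highest regions of replicate 1, summits lay at 5 cytosolic genes (25.0%) and 0 mitochondrial genes, against 14.2% of all genes. In replicate 2 the counts were 10 cytosolic genes (50%) and 1 mitochondrial gene (6.67%), against 15.3% of all genes. In replicate 3 they were 8 (40.0%) and 1 (6.67%), against 14.4% of all genes. The cytosolic share exceeded the mitochondrial share by 25, 43.3 and 33.3 percentage points, a mean of 33.9 ± 9.18 points (SD, n = 3). The exact paired sign-flip permutation test over the 3 replicates gave a two-sided p of 0.25, which is the smallest that 3 replicates allow. The mean cytosolic share was 38.3% ± 12.6 (SD, n = 3), in which each gene counts for 5 percentage points, and the mean share of all genes was 14.6% ± 0.596 (SD, n = 3).

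Regions of any rank separated the enzymes in the same direction, with a wider spread. The authors label the pooled list as peaks and background used as input for IDR. A summit in it therefore need not mark a bound site. The pooled list had a summit at 14 cytosolic genes (70.0%) and 4 mitochondrial genes (26.7%), against 45.1% of all genes. Replicate 1 had a region of any rank at 11 cytosolic genes (55.0%) and 5 mitochondrial genes (33.3%), against 38.1% of all genes. Replicate 2 had one at 17 (85.0%) and 8 (53.3%), against 50.4%. Replicate 3 had one at all 20 cytosolic genes and at 6 mitochondrial genes (40.0%), against 50.5%. The mitochondrial share was below that of all genes in replicates 1 and 3 and above it in replicate 2, while the cytosolic share was above it in each. The difference between cytosolic and mitochondrial shares was 37.8 ± 19.9 points (SD, n = 3), with an exact permutation p of 0.25, again the smallest possible. Many of these regions were weak by the −log10 q that the authors deposited with each region. In replicate 3 it fell to 0.129 at TyrRS and 0.119 at MetRS-m, so these shares are not shares of bound genes.

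**Figure D1:**
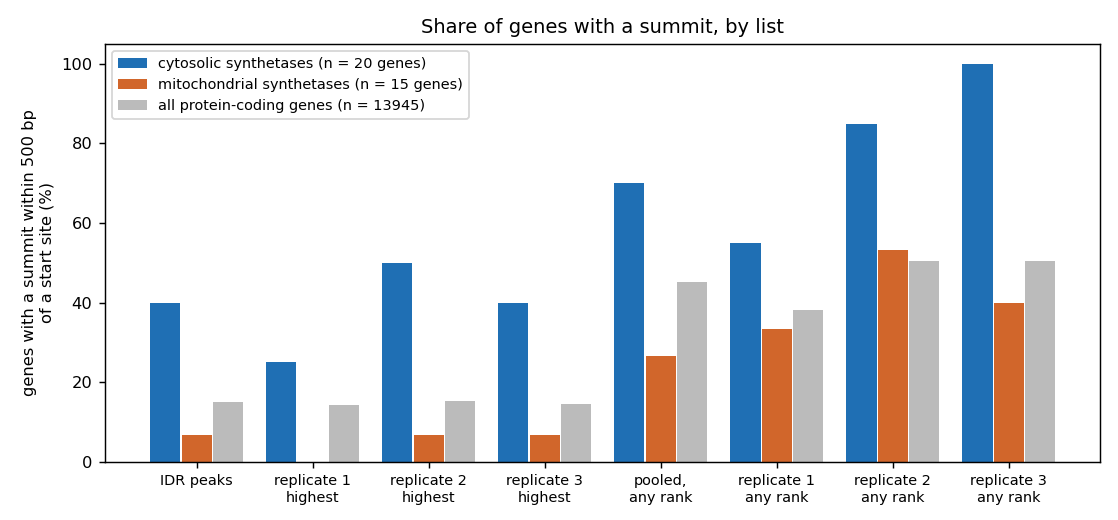
Share of genes, in percent, with a summit within 500 bp of a start site in each list, for cytosolic synthetases, mitochondrial synthetases and all protein-coding genes. The bars of the cytosolic genes stand above those of all genes in every list, from 25.0% against 14.2% in the highest regions of replicate 1 to 100% against 50.5% in replicate 3 at any rank.

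**Figure D2:**
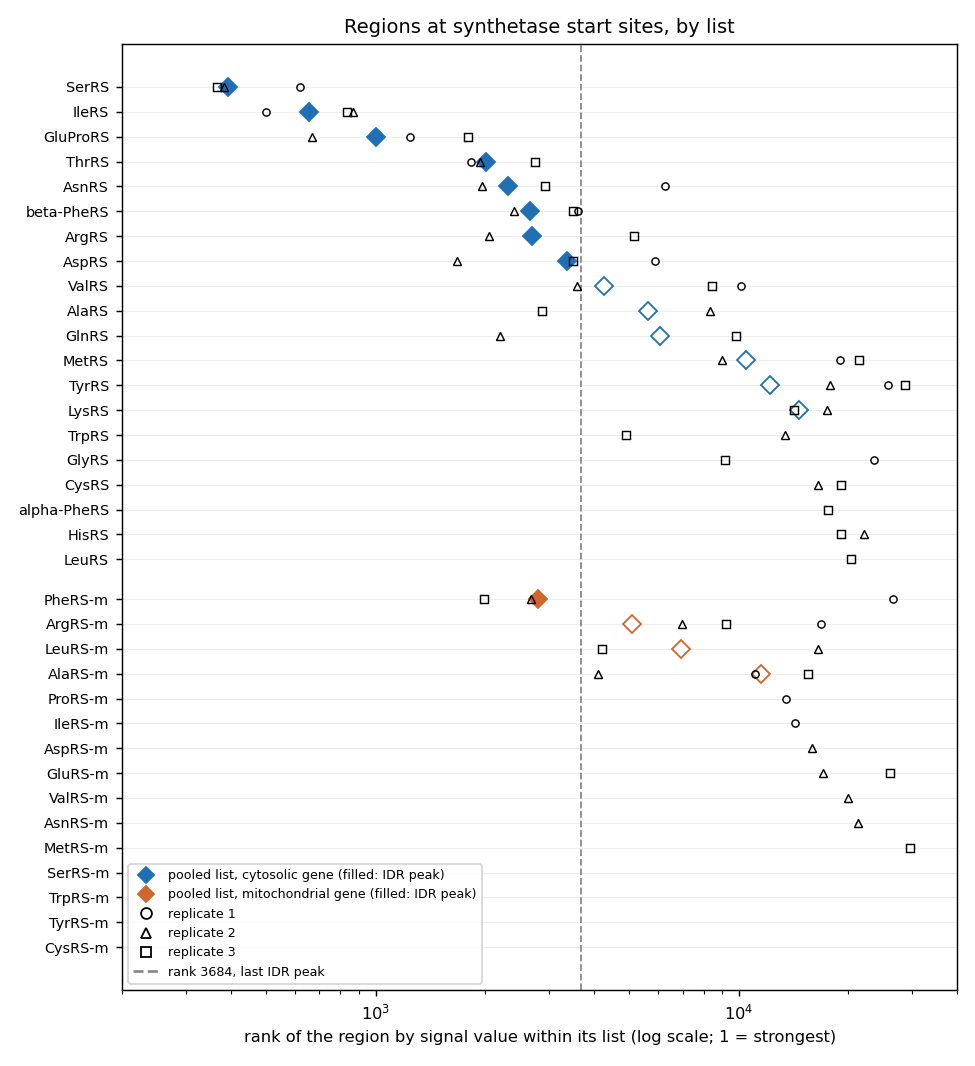
Rank by signal value, on a log axis, of the strongest region at each of the 35 synthetase genes in the pooled list (diamonds, filled for IDR peaks) and in replicates 1 to 3 (open symbols). The dashed line is rank 3684, and a gene without a symbol had no region in that list. SerRS and IleRS lie far left of the line in every replicate, and 4 mitochondrial genes have no symbol at all. The share of all genes without a region in any list is not given.

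The strongest region belonged to SerRS (FBgn0031497), which charges serine tRNAs and, through them, also supplies the selenocysteine pathway. Its IDR peak was chr2L:3037193-3037588, ranked 393 among the 3684 IDR peaks by its signal value of 312.2. The overlapping replicate regions had signal values of 78.18, 120 and 111.9 and ranks of 620, 383 and 366 in replicates 1, 2 and 3. It was the only 1 of the 9 IDR summits that lay downstream of its synthetase start, 12 bp into the 5' untranslated exon of SerRS. CG17260 starts 8 bp away on the other strand, so the peak cannot be assigned to either gene by position.

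IleRS (FBgn0027086), the isoleucine enzyme, followed with an IDR peak at chr3L:22288310-22288705, signal value 253.5, rank 655. Its replicate regions had signal values of 86.63, 81.22 and 77.95, the narrowest relative range of the 3 strongest synthetase peaks. The summit lay outside any exon, 157 bp upstream of IleRS and 313 bp upstream of Hem, which encodes a subunit of the actin-regulating SCAR complex and starts 470 bp away on the other strand. GluProRS (FBgn0005674) encodes a single protein that charges both glutamic acid and proline tRNAs. Its IDR peak, chr3R:23958398-23958793, had a signal value of 202.5 (rank 1002), with replicate signal values of 53.16, 92.15 and 52.48. The summit lay 205 bp upstream of the nearest GluProRS start but 55 bp upstream of AP-1sigma, a clathrin adaptor subunit on the other strand.

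ThrRS (FBgn0027081) and AsnRS (FBgn0086443), the threonine and asparagine enzymes, had weaker IDR peaks. That of ThrRS, at chr2L:12103424-12103819, had a signal value of 136.4 (rank 2013), with replicate signal values of 41.8, 53.11 and 41.24. Its summit lay 129 bp upstream of ThrRS and 337 bp upstream of Patsas on the other strand. That of AsnRS, at chr2L:19131869-19132264, had a signal value of 125.3 (rank 2319). Its replicate regions had signal values of 24.58, 52.88 and 39.8, so replicate 1, at rank 6254, was not among that replicate's highest regions. The AsnRS summit lay 113 bp upstream of its start, 256 bp upstream of DCTN6-p27, a dynactin subunit gene.

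Phenylalanine is the case where the cytosolic enzyme has alpha and beta subunits from different genes and the mitochondrial enzyme is a single chain. Regions differed between these 3 genes. beta-PheRS (FBgn0039175) had an IDR peak at chr3R:24252566-24252961, signal value 114.3 and rank 2664, with replicate ranks of 3615, 2406 and 3494, all within the highest regions. PheRS-m (FBgn0275436), the mitochondrial enzyme, had an IDR peak at chr2R:13968044-13968439, signal value 110.5 and rank 2797. Its replicates were unequal, with signal values of 15.13, 43.71 and 49.35 and ranks of 26573, 2685 and 1984, so replicate 1 was near the end of its list. Both IDR summits lay upstream of their own gene, by 85 and 66 bp, and neither had another protein-coding start within 500 bp. alpha-PheRS, by contrast, had no pooled summit and a single replicate region, at rank 17567 in replicate 3.

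The remaining IDR peaks were those of ArgRS and AspRS, both members of the multisynthetase complex. The ArgRS (FBgn0027093) peak, chrX:15844136-15844531, had a signal value of 113.2 (rank 2703). No region of replicate 1 overlapped it, and the signal values in replicates 2 and 3 were 51.42 and 28.61. The replicate 3 region, at rank 5133, was outside the highest regions, so replicate 2 alone held this peak among them. Its summit lay 189 bp upstream of ArgRS and 142 bp upstream of CG8578 on the other strand. The AspRS (FBgn0002069) peak, chr2R:12879958-12880353, had the lowest signal value of the 9, 97.67, and rank 3360, with replicate signal values of 25.07, 57.51 and 35.86. The replicate 1 region, at rank 5893, was outside that replicate's highest regions, and the replicate 3 summit lay 167 bp from the IDR summit. The AspRS IDR summit lay 128 bp upstream of an inner AspRS start and 74 bp inside Nmda1, in a 5' untranslated exon of Nmda1. With the outermost AspRS start alone, AspRS had no IDR summit.

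As a set, the 9 IDR peaks had a lower median signal value than the IDR peaks at protein-coding genes. It was 125.3, against 151.9 over 1641 such peaks. Of the 9, 3 were among the 1842 strongest of the 3684 IDR peaks. The share of the 1641 among those 1842 is not given. All 3 replicates held 5 of the 9 among their highest regions (55.6%), against 1038 of 1641 (63.3%). The 5 were SerRS, IleRS, GluProRS, ThrRS and beta-PheRS. A summit upstream of the start was found for 8 of 9 (88.9%), against 84.5% of all such peaks, and the median position was 128 bp upstream against 97 bp upstream. The −log10 q of the peaks ran from 2.43 at AspRS to 3.6 at SerRS, IleRS and GluProRS.

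**Figure D3:**
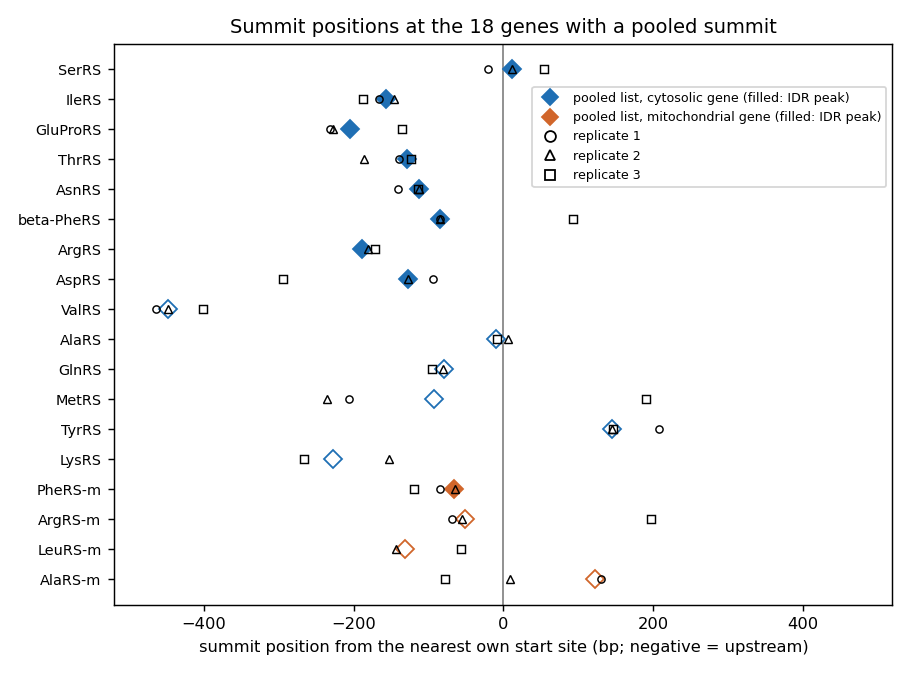
Summit position from the nearest own start site, in bp with negative values upstream, at the 18 synthetase genes with a pooled summit, ordered by pooled signal value within each group. Diamonds are pooled summits, filled for IDR peaks, and open symbols are replicate summits. Of the 18 pooled summits, 15 lie upstream.

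Of the cytosolic genes without an IDR summit, 3 had a summit among the highest regions of a single replicate. GlnRS, the glutamine enzyme, had a region of rank 2205 and signal value 49.5 in replicate 2, rank 9840 in replicate 3 and none in replicate 1. AlaRS, the alanine enzyme, had a region of rank 2873 in replicate 3, rank 8350 in replicate 2 and none in replicate 1, and the nearest IDR summit was 1067 bp away. ValRS, the valine enzyme, reached rank 3584 in replicate 2 and ranks 10146 and 8434 in replicates 1 and 3. Their pooled signal values were 67.06, 70.31 and 83.72, below the lowest signal value of the IDR list, 92.4. The replicates thus did not rank these 3 genes alike.

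A further 6 genes had a pooled summit of lower rank only. The cytosolic ones were MetRS, TyrRS and LysRS, for methionine, tyrosine and lysine, with pooled signal values of 50.63, 47.32 and 43.64. The mitochondrial ones were ArgRS-m, LeuRS-m and AlaRS-m, with 75.05, 62.02 and 48.55. In the same order, the pooled −log10 q was 0.334, 0.249 and 0.163 at the cytosolic genes and 1.39, 0.764 and 0.28 at the mitochondrial ones. At the IDR peaks of synthetase genes it was 2.43 or more. Over the genes with a pooled summit the median signal value was 105.5 at the 14 cytosolic genes, from 43.64 to 312.2, and 68.53 at the 4 mitochondrial genes, from 48.55 to 110.5. The median over all protein-coding genes with a pooled summit was 65.71.

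The other 17 genes had no pooled summit. Low-ranked replicate regions were present at 6 cytosolic genes, CysRS, GlyRS, HisRS, LeuRS, TrpRS and alpha-PheRS. The highest of these was TrpRS in replicate 3, at rank 4882 with a signal value of 29.56. They were also present at 7 mitochondrial genes, AsnRS-m, AspRS-m, GluRS-m, IleRS-m, MetRS-m, ProRS-m and ValRS-m, of which GluRS-m alone had a region in more than 1 replicate. No list held a region at CysRS-m, SerRS-m, TrpRS-m or TyrRS-m. The share of all genes with only a lower-ranked pooled summit, only low-ranked replicate regions or no region is not given. In a single replicate list, 38.1% to 50.5% of all genes had a region, so absence from a list was common.

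Pairs of enzymes for the same amino acid allow the compartments to be compared with the amino acid held constant. By symbol, 15 amino acids had both a cytosolic and a mitochondrial gene, which gave 16 pairs because phenylalanine has 2 cytosolic genes. GluProRS entered 2 pairs and PheRS-m also entered 2, so the pairs are not independent. An IDR summit was present at the cytosolic gene alone in 7 pairs, at the mitochondrial gene alone in 1 pair (alpha-PheRS and PheRS-m), at both in 1 pair (beta-PheRS and PheRS-m) and at neither in 7. Both genes had a pooled summit in 3 pairs, and the signal value was higher at the cytosolic gene in all 3: 70.31 against 48.55 for alanine, 113.2 against 75.05 for arginine, and 114.3 at beta-PheRS against 110.5 at PheRS-m. In 9 pairs the cytosolic gene alone had a pooled summit. The mitochondrial gene alone had one in 2 pairs, LeuRS with LeuRS-m and alpha-PheRS with PheRS-m, and neither had one in the cysteine and tryptophan pairs.

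**Figure D4:**
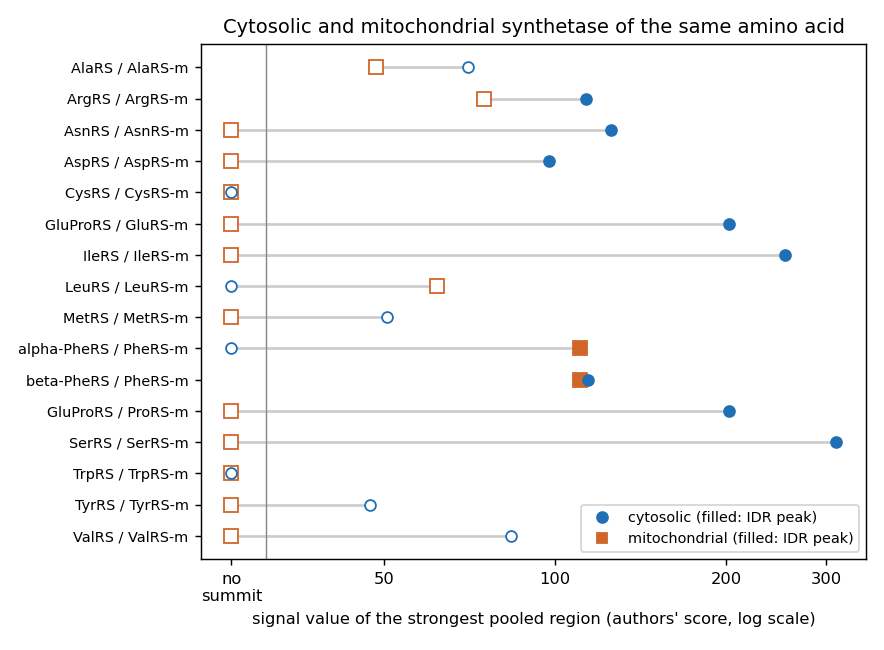
Signal value of the strongest pooled region, on a log axis, at the cytosolic (circle) and mitochondrial (square) gene of each of the 16 pairs for the same amino acid. Filled symbols are IDR peaks, and symbols left of the vertical line had no pooled summit. Both genes have a pooled summit in 3 pairs and the cytosolic gene alone in 9.

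The arrangement of neighbouring genes differed between the enzymes as well. A gene was called head to head where another protein-coding gene started on the other strand within 500 bp, so that a summit between them counts for both. This was the case for 15 of 20 cytosolic genes (75.0%), 7 of 15 mitochondrial genes (46.7%) and 27.8% of all protein-coding genes. IDR summits lay at 29.3% of all head to head genes and 9.52% of all others. Among head to head genes, 7 of 15 cytosolic (46.7%) and 0 of 7 mitochondrial genes had an IDR summit. Among the others the counts were 1 of 5 (20.0%) and 1 of 8 (12.5%). The IDR difference was thus present among head to head genes, and the counts among the others rest on 5 and 8 genes. Whether the arrangement of neighbours accounts for the difference was not tested.

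Assigning each summit to the nearest protein-coding start alone removed ArgRS, AspRS and GluProRS, whose summits were closer to CG8578, Nmda1 and AP-1sigma. Then 5 cytosolic genes and 1 mitochondrial gene had an IDR summit, a difference of 18.3 percentage points in place of 33.3, and the share over all protein-coding genes was 11.2% under the same rule.

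By enzyme class, IDR summits lay at 2 of 9 class I cytosolic genes (22.2%), ArgRS and IleRS, and at 5 of 10 class II genes (50%). The share of all genes was 15.0%. GluProRS, which joins a class I and a class II enzyme, was counted apart. Among the highest regions, class I and class II genes numbered 1 and 3 in replicate 1, 4 and 5 in replicate 2, and 1 and 6 in replicate 3. The class II count was the higher in each replicate, by 1 gene in replicate 2, and the shares of all genes in these lists were 14.2%, 15.3% and 14.4%. Of the 8 synthetases known in animals as multisynthetase complex members, 4 had an IDR summit (50%), namely GluProRS, IleRS, ArgRS and AspRS, against 4 of the 12 other cytosolic genes (33.3%). In replicates 1, 2 and 3 the complex members numbered 2, 5 and 3 and the others 3, 5 and 5, so no order was stable across replicates. The 3 scaffold proteins of the complex, AIMP1, AIMP2 and AIMP3, had no IDR summit. These groupings were added after the values were seen.

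Other genes of the tRNA pathway were compared by their IDR counts beside the 15.0% of all genes. The genes that process or modify tRNAs had IDR summits at 9 of 33 (27.3%), led by Tcs5, of the complex that makes the t6A modification, with a signal value of 1103. Elp5, a subunit of the Elongator complex, which modifies the wobble uridine, followed with 445.1, then RluA-1 with 423.4 and Trmt6, of the m1A methyltransferase, with 338.1. All 4 exceeded the 312.2 of SerRS. In the list for selenocysteine and seryl-tRNA conversion the count was 2 of 4, Sps1 at 156.4 and SecS at 130.2. In the list of elongation factors linked to the delivery of charged tRNA it was 2 of 9, eEF1gamma at 524.5 and eEF1alpha1 at 219.5. The partners of mitochondrial tRNA charging gave 1 of 4, GatA, of the amidotransferase that completes glutaminyl-tRNA, at 219.5. The response to uncharged tRNA gave 1 of 6, Thor, the fly 4E-BP, at 135.7.

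The tRNA genes themselves had summits at lower shares than protein-coding genes. Of 290 annotated tRNA genes, 12 (4.14%) had an IDR summit within 500 bp, from 11 separate summits, against 15.0% of protein-coding genes. A pooled summit lay at 77 (26.6%), against 45.1%. No test of these differences was run. Many tRNA genes are near-identical copies, and how the authors treated reads that match several places was not given in the sources used here.

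Ribosomal protein genes showed the compartments in the same order as the synthetases, at higher shares. The share over all protein-coding genes was 15.0%. Both ribosomal shares stood above it, whereas the mitochondrial synthetase share, 6.67%, stood below it. IDR summits lay at 65 of 93 cytosolic ribosomal protein genes (69.9%), led by RpL7 at 714.5, RpS27 at 669.5, RpL32 at 508.4 and RpL34b at 503.9. They lay at 15 of 73 mitochondrial ones (20.5%), led by mRpL41 at 1406, mRpS10 at 1388, mRpS23 at 1186 and mRpL23 at 575. The mitochondrial ribosomal list therefore held fewer genes with a peak but some of the highest signal values. Translation initiation, elongation and release factors had IDR summits at 16 of 54 genes (29.6%), led by eIF6 at 649.1, eEF1gamma at 524.5, eIF1 at 332 and eIF3h at 268.4. The eIF1 peak is also that of RpL28, whose start is closer to its summit.

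Base composition and short motifs were compared for summits and promoters. The 201 bp around the 9 IDR summits held 33.8% ± 4.09 GC (SD over 9 windows), against 37.2% ± 6.76 over the 1641 IDR summits at all protein-coding genes. Promoters, from 250 bp upstream to 50 bp downstream of the outermost start, held 37.1% GC at the 8 cytosolic genes with an IDR summit, 36.2% at the 12 without, 35.5% at the mitochondrial genes and 39.1% over all genes. The letters searched on both strands were TATCGATA and its inner part ATCGAT, the element of DREF and BEAF-32, GGTCACAC, the core of Ohler motif 1, CACGTG, an E-box, CAGCTG, the core of Ohler motif 5, GAGAG of the GAGA factor, the TATA box letters TATAAA, the GATA factor letters TGATAA, and the E2F forms TTTCGCGC and TTTGGCGC. Every match to TATCGATA is also a match to ATCGAT.

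The letters CAGCTG were in 17 of the 35 synthetase promoters (48.6%), against 17.7% of all promoters and 25.0% of the promoters of all head to head genes. It did not separate the genes with a peak from those without. It was in 4 of 8 cytosolic promoters with an IDR summit, 6 of 12 cytosolic promoters without and 7 of 15 mitochondrial promoters. Mitochondrial ribosomal protein promoters held it at 54.8% and cytosolic ribosomal protein promoters at 9.68%. In the 201 bp around the summits it was in 2 of 9 windows, those of IleRS and ArgRS, against 12.6% of all IDR summits at protein-coding genes. ATCGAT was in 2 of 8, 5 of 12 and 2 of 15 promoters of the same groups, against 23.3% of all promoters. TATAAA and TGATAA were each in 3 of 9 summit windows, against 30.7% and 15.4%.

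The promoters of TyrRS and TrpRS, both without an IDR summit, show these motifs in more than 1 copy. TyrRS is chr3L:16419303-16419422 and TrpRS is chr3R:9266905-9267018, both the bases directly upstream of the start on the minus strand of dm6, read 5' to 3' on that strand from RefSeq. Capitals mark CAGCTG in TyrRS and ATCGAT, once within TATCGATA, in TrpRS.
TyrRS: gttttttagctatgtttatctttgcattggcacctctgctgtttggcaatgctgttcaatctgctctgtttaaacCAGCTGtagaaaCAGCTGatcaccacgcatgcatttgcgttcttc
TrpRS: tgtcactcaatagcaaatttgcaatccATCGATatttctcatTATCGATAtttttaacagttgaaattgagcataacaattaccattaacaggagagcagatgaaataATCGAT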

How the data were processed

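The assay was ChIP-seq with an anti-GFP antibody on 3 biological replicates of 1 group. The authors deposited region lists in narrowPeak format on dm6 (an IDR list, a pooled list and 1 list per replicate), and lists on dm3 were not used. Signal values are a score that the authors deposited with their regions. The deposited q is given as −log10 q. Chromatin was sonicated and the fragment range was 200 to 800 bp, per the labels. Aligner, peak caller, IDR threshold, control and depth were not given in the sources used here, so no interval for counting error could be given.

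Summits, converted to 1-based positions, were matched to all transcript starts of protein-coding genes on the 6 chromosomes with regions (Ensembl release 115, BDGP 6.54). No region ran past a chromosome end of RefSeq Release 6, from which sequences were read. A gene near 2 starts or summits counted once, with its highest signal, and overlap with a replicate region meant at least 1 bp. Python 3.11.15, pandas 2.3.3, numpy 2.4.6 and scipy 1.17.1 were used, and the matching was tested on simulated data. Compartments were compared over the 3 replicates by an exact paired sign-flip permutation test. Other choices tried were the window, the nearest start, the outermost start, fewer regions and leaving out each replicate. The members and lists were chosen with earlier results of these data known. Named were all genes with an IDR summit or a summit among the highest regions of a replicate, up to 6 genes with a pooled summit only, and from each other list up to 4 genes with an IDR summit, by signal value. Of 77 other genes listed by hand, 13 symbols matched no annotated protein-coding gene and were left out.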

Additional observations from a re-analysis of the deposited data

How the results depend on the processing

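A window of 250 bp, in place of 500 bp, kept all 9 synthetase genes with an IDR summit, against 11.9% of all genes, and one of 1000 bp added LeuRS-m, for 2 mitochondrial genes, against 17.6%. With the nearest start only, 5 cytosolic genes had an IDR summit, against 11.2% of all genes, and the share difference was 18.3 points. Under that rule the mean number of genes among the highest regions of a replicate was 5.33 in place of 8.33. The number in all replicates was 3 in place of 5. Among the 1842 strongest IDR peaks 3 genes remained, 3 cytosolic and 0 mitochondrial, a difference of 15 points. With 1842 highest regions per replicate the mean number was 3.67 and the number in all replicates 3. Leaving out each replicate, with IDR peaks kept where the highest regions of both others overlapped them, gave 5 to 8 synthetase genes, 5 to 7 cytosolic, 0 to 1 mitochondrial, and 5 to 8 genes in all remaining replicates. The count of 5 came from leaving out replicate 2 or 3, and 8 in all remaining replicates from leaving out replicate 1. The share over all genes is not given for the settings with 1842 regions or with a replicate left out. Nor is it given for the highest regions with the nearest start only. Those counts therefore have no background beside them. The cause of the changes in count was not tested. No share difference changed direction under these settings. The only pairing in the design is that of the cytosolic and mitochondrial shares within a replicate, which the permutation test uses. Without depth or a control, weak regions cannot be told apart from background.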
